A study of Macaca mulatta with 449 samples.

Results

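Within the cerebral cortex of the rhesus macaque, FSTL1, OSTN, CPA6, NHLH2 and MATN4 had their highest levels in the gyri of the occipital lobe, which holds the primary visual cortex. These 5 genes of the 30807 in the count table were taken by name, because they were already known to be high in the occipital samples of this same table. The contrast between the occipital lobe and the other lobes is therefore given as a description, without a test. The other contrasts (between the occipital gyri, for the neighbouring cuneus and lingual gyrus, outside the cortex, and by age and sex) were tested. The 5 genes belong to a co-expression module that the study built on these same cortical samples. Regional calls within the cortex, those for the cuneus and lingual gyrus included, are therefore not independent of how the genes were chosen.

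Ribosomal RNA-depleted total RNA was sequenced from small dissected pieces of brain of 8 healthy, untreated rhesus macaques. Each animal gave the same 51 sub-regions used here, so that there were 408 libraries. Of these, 248 came from 31 cortical sub-regions, 24 of them from the occipital lobe, and 160 came from 20 further sub-regions, called here outside the cortex. One of the latter, the entorhinal and perirhinal cortex (PA), is itself cortical, but the study does not count it with the 31. The occipital lobe was represented by the anterior superior, posterior superior and inferior occipital gyri (aSOG, pSOG and IOG). The animals comprised 2 females and 2 males aged 3.2 to 5 years (young), and 2 females and 2 males aged 9.8 to 10 years (mid-aged). No genetic or drug treatment separated any of the groups. Each library held 7784678 to 31083490 counts assigned to genes, with a median of 10698602. The occipital libraries had a median of 10111921 counts and the other cortical libraries 10651945. Levels are given in CPM, that is, as counts relative to the scaled library total. The identifier called NHLH2 here carries that name in the study's supplement, whereas the reference gene table gives the name to another identifier. These were pieces of whole tissue, so fewer cells of a type and less RNA per cell cannot be told apart.

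All but NHLH2 encode secreted proteins. FSTL1 (follistatin-like 1) is a glycoprotein of the SPARC family that binds ligands of the bone morphogenetic protein (BMP) pathway, and in monkeys it is known as occ1, a transcript dense in the primary visual cortex. OSTN (osteocrin, or musclin) is a small peptide of bone and muscle that binds the natriuretic peptide clearance receptor, and in primate neurons its gene is induced by activity through MEF2 factors. CPA6 is a carboxypeptidase of the extracellular matrix. MATN4 is a matrilin, an adaptor protein of the matrix. NHLH2 is a basic helix-loop-helix (bHLH) transcription factor known for its roles in hypothalamic neurons.

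FSTL1 had 205 to 435 CPM in the 24 occipital samples, with a median of 336. In the 224 other cortical samples it had 22.3 to 345 CPM, with a median of 58.6. Only 9 of those 224 samples exceeded the lowest occipital sample, and they came from the cuneus (6), the annectant gyri (2) and the lingual gyrus (1). By sub-region, the mean was 357 ± 42.3 CPM in the pSOG, 325 ± 61.3 in the IOG and 283 ± 56.9 in the aSOG (SD, n = 8 each). It then stepped down through the cuneus (229.6 ± 77.5), the annectant gyri (182 ± 34.9), the lingual gyrus (177 ± 31.7), the fusiform gyrus (155 ± 29.4) and the occipito-temporal gyrus (141 ± 32.9). The lowest mean was 31.8 ± 6.80 CPM, in the temporal pole. The sub-regions that followed the occipital gyri for FSTL1 belonged to the parietal, limbic and temporal lobes.

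OSTN had 11.8 to 137 CPM in the occipital samples (median 44.8) and 0.504 to 47.4 CPM in the other cortical samples (median 3.44). Its order began like that of FSTL1, with 68.7 ± 35.1 CPM in the pSOG, 46.2 ± 18.6 in the IOG, 33.8 ± 12.8 in the aSOG and 25.3 ± 17.1 in the cuneus (SD, n = 8). The next places went to the superior postcentral gyrus (15.7 ± 8.23 CPM) and the inferior postcentral gyrus (10.3 ± 2.25), which hold the somatosensory cortex. These stood above the lingual gyrus (7.36 ± 4.05). Of the 15 non-occipital samples above the lowest occipital one, 5 came from the superior postcentral gyrus, as many as from the cuneus.

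MATN4 had 2.40 to 23.4 CPM in the occipital samples (median 12.1) and at most 14.7 CPM in the other cortical samples (median 0.846). The means were 15.3 ± 4.94 CPM in the pSOG, 12.3 ± 4.64 in the IOG, 7.39 ± 4.18 in the aSOG and 6.08 ± 4.86 in the cuneus (SD, n = 8). The annectant gyri (3.54 ± 1.36), the lingual gyrus (2.52 ± 1.78) and the fusiform gyrus (2.52 ± 1.51) followed. As for FSTL1, the temporal pole was lowest (0.286 ± 0.305 CPM).

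CPA6 had the largest ratio of the 5 between occipital and other samples. Its mean was 3.82 ± 1.46 CPM in the pSOG, 2.59 ± 0.827 in the IOG, 1.58 ± 1.05 in the aSOG and 0.877 ± 0.574 in the cuneus (SD, n = 8), and no other cortical sub-region exceeded the 0.273 ± 0.241 CPM of the temporal pole. None of the 224 other cortical samples reached the occipital median of 2.56 CPM. These levels rest on few reads, with a median of 28.5 counts in the occipital samples and 1 in the other cortical samples, of which 98 had no count. The order of the sub-regions below the cuneus therefore rests on few reads.

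NHLH2 had the same first 4 places as CPA6 and a similar depth, with 3.03 ± 1.20 CPM in the pSOG, 2.64 ± 1.56 in the IOG, 1.65 ± 1.31 in the aSOG and 1.36 ± 1.02 in the cuneus (SD, n = 8). As with OSTN, the superior (0.596 ± 0.360 CPM) and inferior postcentral gyri (0.514 ± 0.423) came next. Its median was 25.5 counts in the occipital samples and 1 count elsewhere in the cortex, where 69 samples had none. The lowest occipital sample, the aSOG of Rhesus 6 at 0.210 CPM, was exceeded by 87 other cortical samples, so the NHLH2 ranges overlapped widely.

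**Figure D1:**
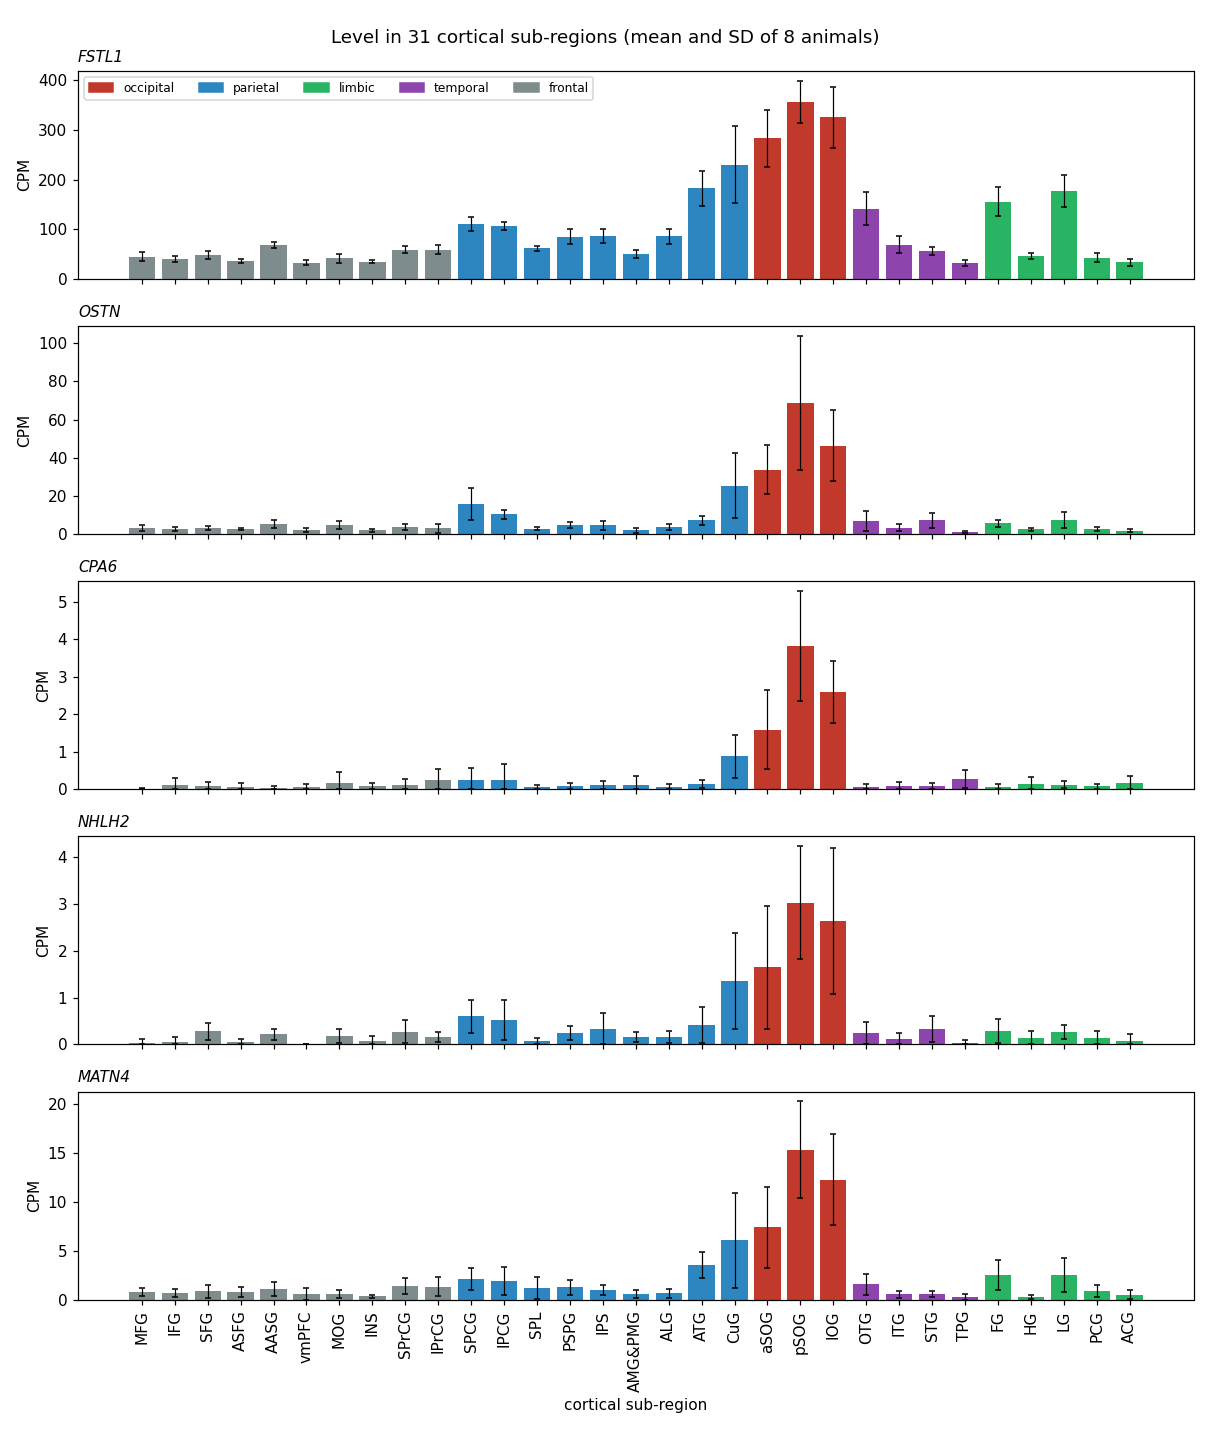
Levels of the 5 genes in the 31 cortical sub-regions, in CPM on linear axes that start at 0 and differ between genes. Bars are means of 8 animals, error bars are 1 SD with the lower end stopped at 0, and colours mark the lobes. In every panel the pSOG, IOG, aSOG and cuneus are the 4 tallest bars, in that order.

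The first 4 places in the order of the 31 sub-regions were the same for all 5 genes. Between neighbours in that order, the ranges of mean ± SD overlapped for all 30 pairs in each gene. Within animals, the step had the same sign in 8 of 8 animals for 2 of the 30 FSTL1 pairs, from the aSOG to the cuneus and from the inferior postcentral gyrus to the intraparietal sulcus, and for 0 of 30 pairs in each of the other 4 genes. Sub-region accounted for 94.5% of the variation of FSTL1 over the 248 cortical samples (on the log2(CPM + 1) scale), for 83.6% of that of OSTN, 82.2% of CPA6, 78.8% of MATN4 and 73.5% of NHLH2. The median over the 14394 genes with a mean of at least 1 CPM was 19.6%. The animal accounted for 1.44% to 9.22% of the variation of the 5 genes, against a median of 28.4% over those same genes. CPA6 and NHLH2 themselves had means under 1 CPM over the cortical samples, so their shares stand beside those of more highly expressed genes. The shares of the 5 describe genes that were picked for their regional difference.

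When counts were summed per lobe and animal, the occipital level of FSTL1 was 2.85 to 4.99 times the mean of the other 4 lobes in the 8 animals (median 3.96). The ratio was 6.26 to 12.9 for OSTN (median 9.94) and 4.70 to 15.8 for MATN4 (median 11.7). It was 6.87 to 20.4 for NHLH2 (median 9.83) and 10.8 to 36.7 for CPA6 (median 21.6). In every animal and for every one of the 5 genes the occipital lobe was also above the highest of the other lobes, by at least 2.33 times. The fitted log2 fold changes were 2.07 ± 0.06 for FSTL1, 3.42 ± 0.11 for OSTN, 3.47 ± 0.14 for MATN4, 3.60 ± 0.16 for NHLH2 and 4.43 ± 0.19 for CPA6 (SE, n = 8 animals). All 5 passed the filter on low counts. In the same fit 56.3% of the 17478 genes tested were called different at a false discovery rate (FDR) under 0.05, and 29.9% were called higher. Because the genes were chosen on this contrast, nothing is read from their own calls.

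Within the occipital lobe, the tests asked whether the 3 gyri differed. All 5 genes were highest in the pSOG and lowest in the aSOG by their means. FSTL1, MATN4 and CPA6 were higher in the pSOG than in the aSOG in 8 of 8 animals, and OSTN and NHLH2 in 7 of 8. FSTL1 rose by a log2 fold change of 0.36 ± 0.07 (SE; edgeR quasi-likelihood test with the animal as a block, Benjamini-Hochberg adjusted p = 0.0148), MATN4 by 1.13 ± 0.20 (adjusted p = 0.0102) and CPA6 by 1.29 ± 0.30 (adjusted p = 0.0431). OSTN (0.96 ± 0.26, adjusted p = 0.0793) and NHLH2 (1.02 ± 0.30, adjusted p = 0.0981) missed the threshold. Of all 14512 genes tested, 1.12% were called, and 0.448% were called higher in the pSOG. The calls depended on single animals, over all genes as for these 5. Without Rhesus 7 none of the 5 genes was called, and 14 genes in all were, against 162 with every animal. Without Rhesus 11 MATN4 was called among 38 genes, without Rhesus 10 all 5 were called among 195, and without the animal block none of the 5 was called among 4. Without Rhesus 7 the log2 fold changes moved little, to 0.34 for FSTL1, 1.07 for MATN4 and 1.27 for CPA6. Other animals moved them more. Over all fits that left out 1 animal, they spanned 1.03 to 1.46 for CPA6, 0.71 to 1.16 for OSTN and 0.83 to 1.25 for NHLH2. FSTL1 spanned 0.33 to 0.40 and MATN4 1.01 to 1.27.

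The sample values behind this contrast show where the animals parted. In the aSOG, FSTL1 had 212 to 365 CPM, MATN4 2.40 to 13.9 CPM and CPA6 0.210 to 2.93 CPM. In the pSOG, the corresponding ranges were 300 to 435, 11.1 to 23.4 and 2.10 to 6.00 CPM. All 3 ranges overlapped between the gyri. Rhesus 6 and Rhesus 11 were among the lowest 3 animals of the aSOG for all 5 genes. In the pSOG, Rhesus 11 was among the lowest 3 for 4 of the 5 genes and Rhesus 6 for 2, FSTL1 and NHLH2. Rhesus 6 there had the highest OSTN level of any sample, 137 CPM, against 18.6 CPM in Rhesus 10. Some neuronal markers also differed between the pSOG and the aSOG: PVALB of fast-spiking interneurons was higher (0.60, adjusted p = 0.00627), and LAMP5 (-0.56, adjusted p = 0.0347), ETV1 (-0.66, adjusted p = 0.0148), NEFL (-0.25, adjusted p = 0.0407) and NEFM (-0.29, adjusted p = 0.0489) were lower. They were the only ones called in this contrast among the cell type markers tested, and their part in the levels of the 5 genes was not tested.

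The IOG lay between both superior gyri. For IOG against aSOG the log2 fold changes were 0.20 ± 0.07 (FSTL1), 0.42 ± 0.26 (OSTN), 0.73 ± 0.31 (CPA6), 0.72 ± 0.30 (NHLH2) and 0.78 ± 0.20 (MATN4). None of the 5 passed the threshold (adjusted p from 0.158 to 0.410), and 0.0482% of all genes did. MATN4 was called in this contrast without Rhesus 3, at 0.92. For pSOG against IOG the log2 fold changes were 0.16 ± 0.07 (FSTL1) to 0.56 ± 0.29 (CPA6). Here edgeR called none of the 14512 genes, with 417 at an unadjusted p under 0.05, and DESeq2 also called none. The unadjusted p of FSTL1 was 0.0321 and that of OSTN was 0.0471.

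The cuneus, which the study lists with the parietal lobe, lies on the medial face of the hemisphere beside the occipital gyri. FSTL1, OSTN, NHLH2 and MATN4 were all higher there than in the mean of the other 8 parietal sub-regions. The log2 fold changes were 1.35 ± 0.08 for FSTL1 (adjusted p = 3.75e-19), 2.33 ± 0.19 for OSTN (1.46e-14), 2.36 ± 0.30 for NHLH2 (1.75e-08) and 2.20 ± 0.21 for MATN4 (3.15e-12). For each gene the fit used a single estimate of spread over all parietal sub-regions. These errors and p-values therefore do not measure the spread between animals in the cuneus itself, which is described below. Of the 15339 genes tested, 14.3% were called, and 6.86% were called higher. NHLH2 passed the filter on low counts largely through the cuneus samples themselves. It reached 2.60 CPM there, against at most 1.31 CPM in the superior postcentral gyrus, the next highest parietal sub-region. In the fit without the filter the log2 fold change of NHLH2 was 2.36 ± 0.31 (adjusted p = 3.93e-08). CPA6 did not pass the filter in this fit. Without the filter its log2 fold change was 2.91 ± 0.42 (adjusted p = 4.95e-07).

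The cuneus varied widely between animals. FSTL1 had 345 CPM in Rhesus 2, 314 in Rhesus 10, 260.3 in Rhesus 4, 232 in Rhesus 7, 214 in Rhesus 3, 211 in Rhesus 11, 147 in Rhesus 8 and 114 in Rhesus 6. OSTN spanned 3.40 to 47.4 CPM and MATN4 1.13 to 14.7 CPM in the same 8 samples. The animals kept their places across genes: Rhesus 6 and Rhesus 8 held the lowest 2 places for all 5 genes, and Rhesus 2 was among the highest 3 for all 5. Compared with their own means over the other parietal sub-regions, FSTL1 and CPA6 were higher in the cuneus in 8 of 8 animals, MATN4 in 7, OSTN in 6 and NHLH2 in 5. The levels of cell type markers in the same samples were as follows. The summed level of 8 neuronal markers in the cuneus was 14075 CPM in Rhesus 6 and 16799 in Rhesus 8, within a range of 13910 to 17687 over the 8 animals. The sum of 10 oligodendrocyte markers was 3960 CPM in Rhesus 6, the lowest, and 5687 in Rhesus 8, the second highest of 8. Of 5 microglial markers the sum was highest in Rhesus 6 (81.9 CPM) and lowest in Rhesus 2 (50.6 CPM), with 76.3 CPM in Rhesus 8. Rhesus 8 and Rhesus 6 had the highest sums of 6 choroid plexus markers (11.4 and 11.0 CPM, with 8.49 CPM the lowest of the 8 animals). For the markers of layer 2 to 4 neurons, layer 5 to 6 neurons, interneurons, astrocytes and endothelial and mural cells, both animals lay inside the range of the other 6. The part of tissue composition in the differences was not tested.

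**Figure D2:**
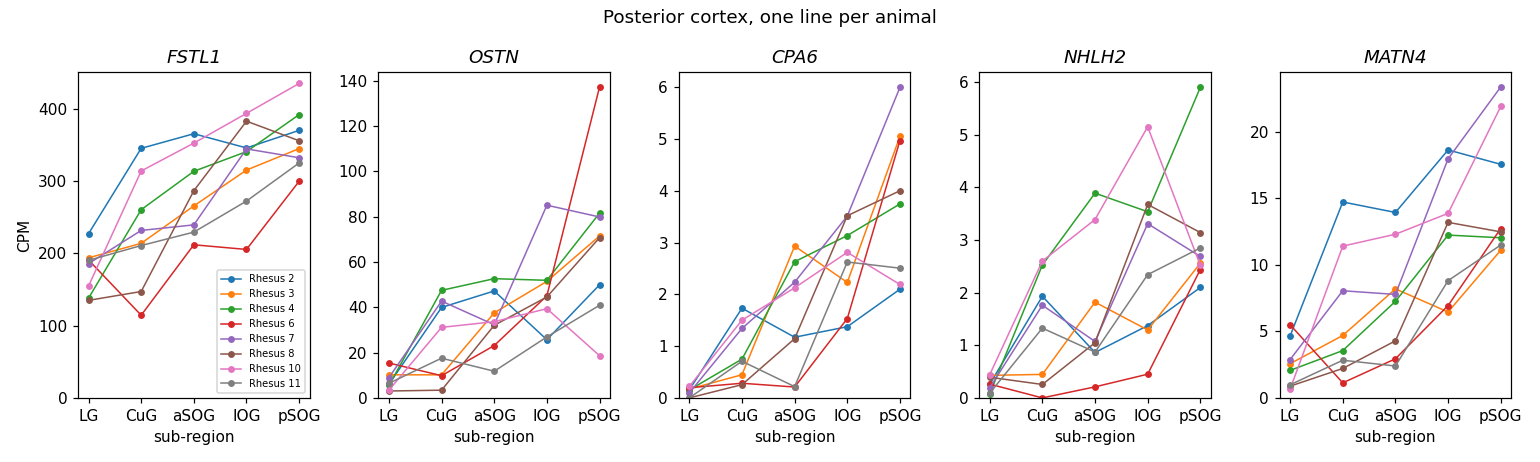
Levels of the 5 genes in the lingual gyrus (LG), cuneus (CuG), aSOG, IOG and pSOG, in CPM on linear axes that start at 0 and differ between genes. Each coloured line joins the samples of 1 animal. Rhesus 6 (red) and Rhesus 8 (brown) are the lowest lines at the cuneus in each panel.

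The study places the lingual gyrus in the limbic cortex. FSTL1 (log2 fold change 1.65 ± 0.07, adjusted p = 1.72e-18), MATN4 (1.67 ± 0.23, adjusted p = 5.22e-07) and OSTN (1.34 ± 0.13, adjusted p = 7.36e-10) were higher there than in the mean of the other 4 limbic cortex sub-regions. FSTL1 and OSTN were higher in 8 of 8 animals and MATN4 in 7 of 8. Of the 15152 genes tested, 27.2% were called and 13.4% were called higher. CPA6 and NHLH2 did not pass the filter. Without the filter, their log2 fold changes were 0.34 ± 0.56 (adjusted p = 0.816) and 0.94 ± 0.51 (adjusted p = 0.250). At the lingual gyrus, every call named here held when each animal was left out in turn. At the cuneus, those of FSTL1, OSTN and MATN4 did as well. The cuneus call of NHLH2 held in 7 of the 8 fits, and in the remaining fit NHLH2 did not pass the filter.

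Outside the cortex the 5 genes went separate ways. Each of the 15 non-cortical region groups was compared with the non-occipital cortex over 16900 genes tested. The share of all genes called was 33.3% in the entorhinal and perirhinal cortex, 37.2% in the amygdala, 44.2% in the hippocampus, 53.1% in the striatum, 56.4% in the hypothalamus, 56.8% in the thalamus, 64% in the pons and 65% in the olfactory bulb. It was 67% in the ventral tegmental area, 67.3% in the medulla oblongata, 67.5% in the cerebellum, 68.6% in the substantia nigra, 73.1% in the globus pallidus, 79.6% in the corpus callosum and 81.1% in the pituitary. By direction, 17.7% to 41.6% of genes were called higher and 15.5% to 40.5% lower. Against these shares, 62 of the 75 combinations of the 5 genes and 15 groups were called.

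NHLH2 was highest in the thalamus. Its level there was 46.5 ± 9.83 CPM, against 2.53 ± 1.15 CPM in the occipital lobe and 0.253 ± 0.104 CPM in the rest of the cortex (SD, n = 8). The lowest thalamic value, 31.6 CPM, was above the highest occipital one, 4.51 CPM. The cerebellum had 18.6 ± 3.89 CPM, the hypothalamus 13.4 ± 4.43 CPM and the ventral tegmental area 8.54 ± 3.46 CPM. The occipital enrichment of NHLH2 was thus one within the cortex. Against the non-occipital cortex NHLH2 was called higher in 12 of the 15 groups, with log2 fold changes up to 7.55 ± 0.33 in the thalamus (adjusted p = 4.80e-42). It was called lower in the striatum (-1.99 ± 0.50, adjusted p = 4.25e-04) and was not called in the amygdala or the pituitary. In the thalamus, 28.1% of the genes tested were called higher and 28.7% lower.

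OSTN and MATN4 were low in most groups outside the cortex. OSTN was called lower than in the non-occipital cortex in 14 of 15 groups, all but the olfactory bulb, where it had 3.61 ± 2.02 CPM against 5.51 ± 1.25 CPM (log2 fold change -0.51 ± 0.32, adjusted p = 0.156). In the pituitary no OSTN read was counted in any of the 8 samples, which makes it at least 177-fold lower than in the non-occipital cortex when set against a floor of 3 counts over the group. MATN4 was called lower in 14 of 15 groups, all but the ventral tegmental area, where it had 1.04 ± 0.736 CPM against 1.39 ± 0.698 CPM (log2 fold change -0.42 ± 0.35, adjusted p = 0.291). One OSTN value outside the cortex stood apart. The hypothalamus sample of Rhesus 6 had 8.99 CPM, against 0.145 to 0.464 CPM in the other 7 animals. The same sample held 473 CPM of SLC17A7, a marker of cortical excitatory neurons, against at most 5.09 CPM in the other 7. Without it the log2 fold change of OSTN in the hypothalamus was -4.25 ± 0.39, compared with -2.30 ± 0.37 with it, and both were called lower.

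FSTL1 was expressed widely. It was called lower than in the non-occipital cortex in 11 groups, of which the cerebellum was lowest at 23.8 ± 2.15 CPM (log2 fold change -1.80 ± 0.12, adjusted p = 2.74e-26) against 84.6 ± 8.05 CPM. It was called higher in the pituitary (143 ± 47.2 CPM, log2 fold change 0.90 ± 0.12, adjusted p = 5.29e-11) and the pons (120.2 ± 12.8 CPM, 0.56 ± 0.12, adjusted p = 2.44e-05). It was not called in the corpus callosum (70.5 ± 13.1 CPM) or the medulla oblongata (90.7 ± 15.0 CPM). The highest of these groups, the pituitary, stayed below the occipital lobe (332 ± 47.8 CPM).

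CPA6 had a second site, the olfactory bulb. Its level there was 1.65 ± 0.757 CPM, against 2.80 ± 0.868 CPM in the occipital lobe and 0.147 ± 0.0694 CPM in the rest of the cortex (SD, n = 8). The olfactory samples ranged from 0.448 to 2.85 CPM and overlapped the occipital range of 1.53 to 4.02 CPM. Against the non-occipital cortex the log2 fold change was 3.57 ± 0.36 (adjusted p = 1.35e-15), in a comparison where 33.4% of genes were called higher. CPA6 passed the filter on low counts largely through the occipital and olfactory samples. In the rest of the cortex it reached at most 0.299 CPM in any animal. Its calls outside the cortex, in either direction, therefore depend on the groups where it was high. CPA6 was not called in 7 groups, which also had few reads. There were 4 each in the amygdala and the entorhinal and perirhinal cortex, and 6 in the ventral tegmental area. The globus pallidus had 8 (0.0937 CPM), the hypothalamus 10 (0.110 CPM), the pituitary 10 (0.0824 CPM) and the striatum 23 (0.106 CPM). In the other 7 no read was counted in the corpus callosum or the pons, and 1 was counted in the thalamus. The hippocampus, the medulla oblongata and the substantia nigra had 2 each, and the cerebellum had 3. Called and uncalled groups thus differed by few reads. These 7 groups were called lower than the non-occipital cortex. Set against the floor of 3 counts, CPA6 was at least 4.38-fold lower in the corpus callosum and at least 3.95-fold lower in the pons.

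**Figure D3:**
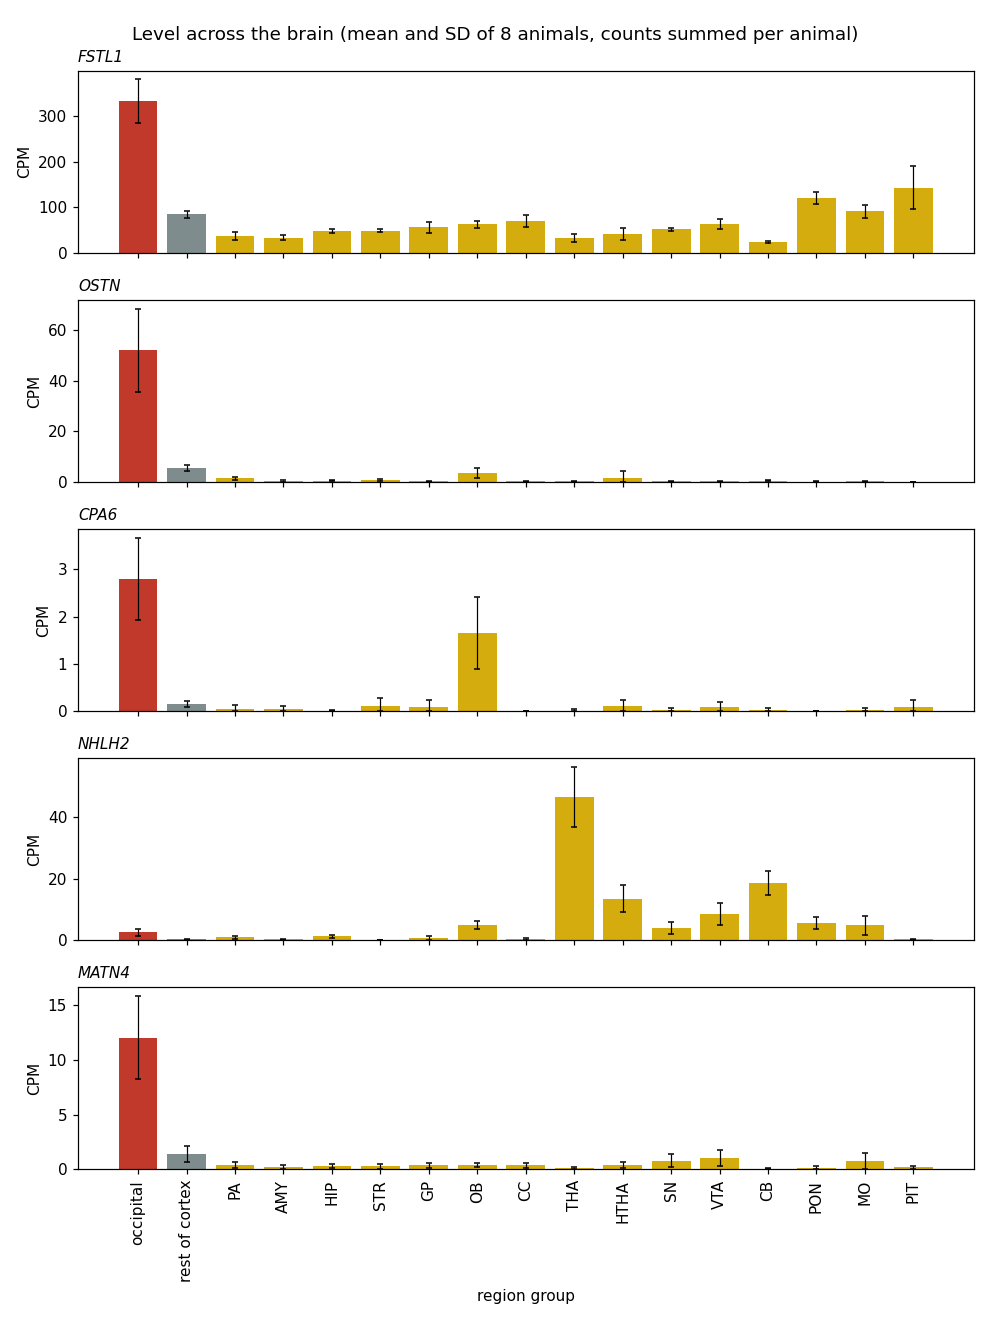
Levels of the 5 genes in the occipital lobe (red), the rest of the cortex (grey) and 15 non-cortical region groups (yellow), in CPM on linear axes that start at 0 and differ between genes. Bars are means of 8 animals after summing the counts of each group, and error bars are 1 SD with the lower end stopped at 0. The tallest NHLH2 bar is the thalamus (THA), and the CPA6 bar of the olfactory bulb (OB) is second to the occipital lobe.

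Age and sex were compared in sums over each animal's occipital samples. None of the 5 genes was called by age or by sex, in the occipital lobe or in the rest of the cortex. A call here needed an FDR under 0.1 and a log2 fold change beyond 1. By age, edgeR called 0% of the 16427 genes in the occipital lobe, with 500 at an unadjusted p under 0.05, and DESeq2 called 7. In the rest of the cortex edgeR called 0% of 20404 genes, with 1139 at an unadjusted p under 0.05, and DESeq2 called 81. By sex, 0.0913% of genes were called in the occipital lobe and 0.0784% in the rest of the cortex.

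NHLH2 showed the largest age difference of the 5. The young animals had 4.34, 2.31, 2.69 and 3.62 CPM in the occipital lobe (Rhesus 4, 7, 8 and 10), and the mid-aged animals had 1.34, 1.99, 1.08 and 2.10 CPM (Rhesus 2, 3, 6 and 11). The age groups did not overlap. The log2 fold change was -0.95 ± 0.29, with an unadjusted p of 0.00861 and an adjusted p of 0.9998 (edgeR), so the difference did not pass the test over all genes. FSTL1 had 342 ± 30.5 CPM in the young and 296 ± 49.7 CPM in the mid-aged animals (SD, n = 4 each). Its ratio of the occipital level to that in the rest of the cortex was 4.26 to 4.90 in the young and 2.92 to 3.86 in the mid-aged animals, again without overlap. The test of whether the age effect differed between the occipital lobe and the rest of the cortex gave a log2 difference of -0.38 ± 0.11 for FSTL1 and -0.88 ± 0.30 for MATN4 (adjusted p = 0.923 for both). In this test edgeR called 0% of 18193 genes, with 710 at an unadjusted p under 0.05, and DESeq2 called 2. The corresponding differences by sex lay between -0.36 (CPA6) and 0.34 (NHLH2), with an adjusted p of 1.000 for all 5 and 0% of genes called by edgeR, which put 178 at an unadjusted p under 0.05, or by DESeq2.

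**Figure D4:**
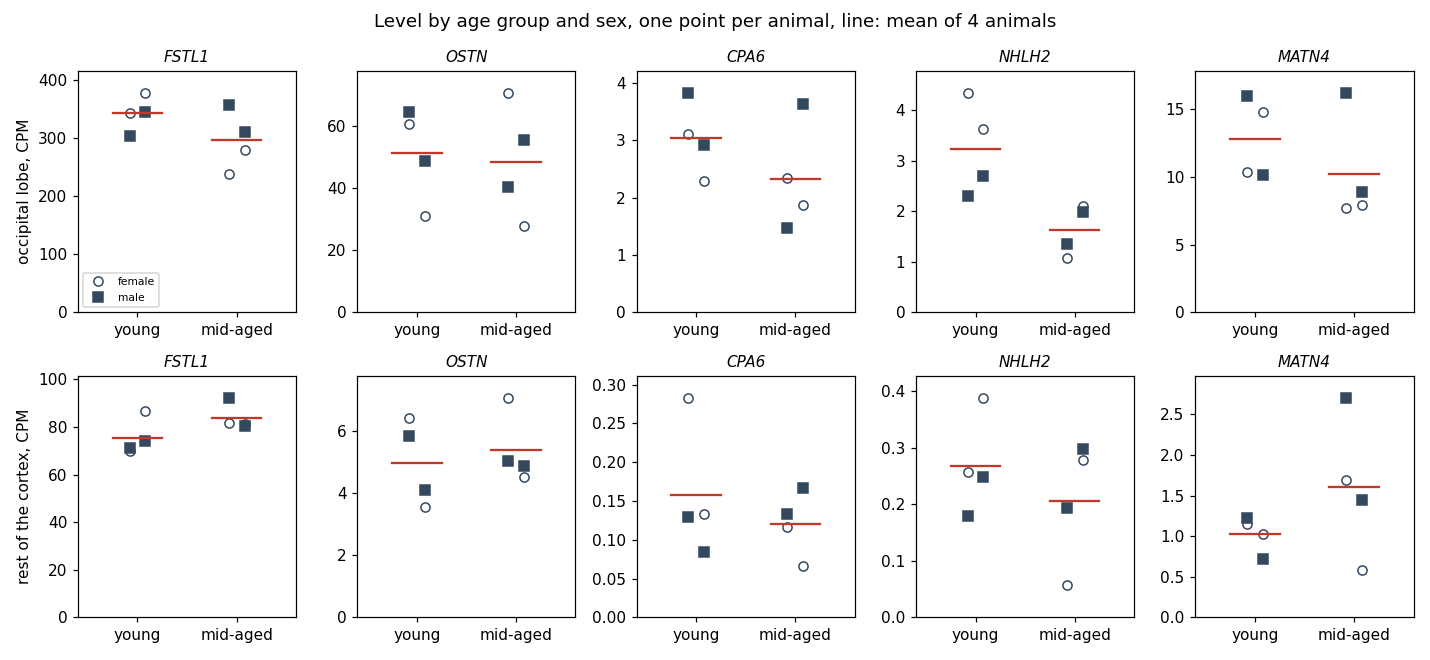
Levels of the 5 genes by age group in the occipital lobe (top) and the rest of the cortex (bottom), in CPM on linear axes that start at 0 and differ between panels. Each point is 1 animal (open circles female, filled squares male), and the red line is the mean of 4 animals. The occipital NHLH2 values of the mid-aged animals, 1.08 to 2.10 CPM, lie below those of the young animals.

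The genes whose profile over the 31 cortical sub-regions was most like each of the 5 were found by Pearson's r of mean log2(CPM + 1), among 11782 other genes with a mean of at least 1 CPM. The points share libraries and animals, and the values are descriptions. The closest pair of all was OSTN with UTS2B, which encodes the peptide urotensin 2B (r = 0.998, and 0.994 over the 28 sub-regions left without the occipital gyri). UTS2B had 10.2 to 119.7 CPM in the occipital samples and 0.264 to 44.1 CPM in the other cortical samples, and its occipital log2 fold change was 3.43 ± 0.10. On the RefSeq T2T-MMU8v2.0 assembly UTS2B is the nearest protein-coding gene on one side of OSTN, and a long non-coding RNA gene overlaps OSTN. How reads of overlapping genes were assigned by strand is not given in the sources used here, so such reads could not be separated. Outside the cortex each gene was set against its own level in the non-occipital cortex. In the olfactory bulb UTS2B had 68.9% of that level and OSTN 65.5%, and in the entorhinal and perirhinal cortex they had 27.7% and 25.99%. In 9 of the 15 groups the percentage of UTS2B was over 2 times that of OSTN, as in the hippocampus (19.2% and 8.71%), the ventral tegmental area (14.5% and 4.80%) and the pons (6.92% and 1.51%). The pituitary was one of these, with 18 reads of UTS2B and none of OSTN. These are descriptions without a test.

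UTS2B was also the gene most like NHLH2 (r = 0.956), followed by the metalloprotease gene ADAMTS17 (0.949) and the matrix protein gene ABI3BP (0.949). For OSTN, the neuronal glycoprotein gene ASTN2 (0.948) was also among the closest 3. MATN4 was most like ADAMTS17 (0.969), the polo-like kinase gene PLK5 (0.945) and the postsynaptic scaffold gene HOMER3 (0.943). CPA6 was most like CRISPLD1 (0.958), PLK5 (0.947) and the phosphodiesterase gene PDE3A (0.937). For these 3 genes r was 0.639, 0.697 and 0.645 without the occipital gyri, and Spearman's rho over all 31 sub-regions was 0.407, 0.522 and 0.353. The genes most like FSTL1 changed less between lobes than FSTL1 itself. ANKRD27 (r = 0.985), SEPHS1 (0.983) and the kinesin heavy chain gene KIF5B (0.981) had occipital log2 fold changes of 0.64 ± 0.03, 0.41 ± 0.03 and 0.77 ± 0.05. Among themselves, the 5 genes had r from 0.699 (FSTL1 and CPA6) to 0.954 (OSTN and NHLH2) over 31 sub-regions. Without the occipital gyri the lowest was 0.365 (FSTL1 and CPA6) and the highest 0.901 (OSTN and NHLH2).

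The relatives and partners of the 5 genes were taken from fixed lists and compared between the occipital lobe and the mean of the other lobes. The largest increase among the tested relatives and partners was 0.95, in HAPLN4. Over all 17478 genes tested, 5224 were called higher and 4611 lower, with a median log2 fold change of 0.02. Of 9 tested relatives of FSTL1 in the SPARC and follistatin family, 2 rose and 3 fell (median -0.0029). SPOCK1 (0.67 ± 0.08, adjusted p = 2.30e-08) and SPOCK2 (0.29 ± 0.04, adjusted p = 3.72e-08), both proteoglycans, rose, while SMOC2 fell by 0.61 and SPARCL1 by 0.15. Of 19 genes of BMP signalling, 2 rose and 5 fell (median -0.08). The ligand gene BMP4 (0.57 ± 0.07) and the antagonist gene CHRD (0.39 ± 0.06) rose, and the ligand gene BMP5 (-1.25 ± 0.37) and the inhibitor gene ID4 (-0.50 ± 0.06) fell.

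Around OSTN, all 7 tested genes of the natriuretic peptide system were called, 2 higher and 5 lower (median -0.45). The ligand genes NPPA (-2.89 ± 0.23, adjusted p = 6.45e-13) and NPPC (-0.82 ± 0.08, adjusted p = 2.64e-10) fell. So did NPR3, the clearance receptor that binds osteocrin (-0.45 ± 0.18, adjusted p = 0.0315), at 0.394 CPM in the occipital lobe and 0.556 CPM elsewhere in the cortex, and the kinase gene PRKG2 (-0.50 ± 0.08). Of 3 MEF2 factors, MEF2A (0.50 ± 0.04) and MEF2C (0.23 ± 0.04) rose in 8 of 8 animals. Of 18 activity-regulated genes, 3 rose and 9 fell (median -0.22). The largest of these changes were all decreases, in NPTX2 (-1.43 ± 0.09), NPAS4 (-1.005 ± 0.12), NR4A3 (-0.92 ± 0.10) and CREM (-0.88 ± 0.05).

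Of 10 tested carboxypeptidases of the CPA6 family and their inhibitor latexin, 2 rose and 5 fell (median -0.20). CPA4 rose by 0.73 ± 0.17, at under 1 CPM, and CPXM2 (-0.78 ± 0.14), CPXM1 (-0.68 ± 0.25) and CPD (-0.61 ± 0.11) fell. Of 15 bHLH factors and their partners, 5 rose and 7 fell (median -0.01). NHLH1, the closest relative of NHLH2, fell by 0.89, as did the neuronal factor genes NEUROD6 (-1.46 ± 0.12) and NEUROD1 (-1.39 ± 0.11), whereas BHLHE22 rose (0.74 ± 0.06). BHLHE22 was also called higher in the pSOG than in the aSOG (0.58, adjusted p = 0.0454). Of 11 matrilins and components of the perineuronal net, the matrix around fast-spiking interneurons, 2 rose and 7 fell (median -0.28). The link protein gene HAPLN4 rose (0.95 ± 0.08, adjusted p = 1.30e-12), and TNC (-1.95 ± 0.12), TNR (-0.65 ± 0.18) and the matrilin gene MATN3 (-0.54 ± 0.13) fell.

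Genes known to mark areas of the primate cortex were compared in the same way, from a list chosen with earlier results of these data known. Of 10 tested, 6 rose and 4 fell. The serotonin receptor gene HTR1B, known like FSTL1 for its signal in the primary visual cortex, had 14.2 CPM in the occipital samples and 3.44 CPM in the others (log2 fold change 2.14 ± 0.08, adjusted p = 7.44e-22). RBP4 (-3.40 ± 0.17), SLIT1 (-2.31 ± 0.09) and PNMA5 (-2.27 ± 0.10), known for higher signal in association cortex, fell. All 4 changed in the same direction in 8 of 8 animals.

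Several cell type markers moved with the occipital lobe. All 10 oligodendrocyte markers rose (median 0.51), led by CNDP1 (0.95 ± 0.08), and their summed level was 3504 to 5346 CPM in the occipital lobe against 2478 to 3456 CPM over the other lobes, higher in 8 of 8 animals. All 5 microglial markers fell (median -0.53), with a summed level of 50.3 to 101.7 CPM against 84.3 to 131 CPM. Of 7 astrocyte markers, 1 rose and 4 fell, GFAP most (-0.87 ± 0.08). Among 13 interneuron markers, PVALB of fast-spiking cells rose (1.77 ± 0.07), and SST (-1.07 ± 0.09), CALB2 (-1.75 ± 0.11) and NPY (-0.70 ± 0.08) fell. In all, 2 rose and 8 fell. Of 7 markers of layer 2 to 4 neurons, 5 rose and 2 fell. CUX1 (1.03 ± 0.04) and RORB (0.97 ± 0.14) rose, and CALB1 (-1.06 ± 0.06) and LAMP5 (-0.92 ± 0.06) fell. Of 12 markers of layer 5 to 6 neurons, 6 rose and 6 fell, with SYT6 (1.83 ± 0.13), PCP4 (1.601 ± 0.06) and THEMIS (0.65 ± 0.16) among the former and BCL11B (-0.88 ± 0.11) among the latter. Of 8 general neuronal markers, SNAP25 (0.40 ± 0.03) and RBFOX3 (0.32 ± 0.05) rose and SLC17A7 (-0.58 ± 0.04) fell. Of 7 endothelial and mural markers, 1 rose and 4 fell, VWF (-0.33 ± 0.08) and DCN (-0.30 ± 0.05) among them. Of 6 choroid plexus markers, 3 rose and 2 fell. CLIC6 (-4.05 ± 0.37) and KL (-1.21 ± 0.09) were lower in 8 of 8 animals. FOLR1 rose (0.92 ± 0.27). TTR was higher in 1 of 8 animals only, though its fitted change was called (1.503 ± 0.61, adjusted p = 0.0359). The part of these cell types in the levels of the 5 genes was not tested.

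**Figure D5:**
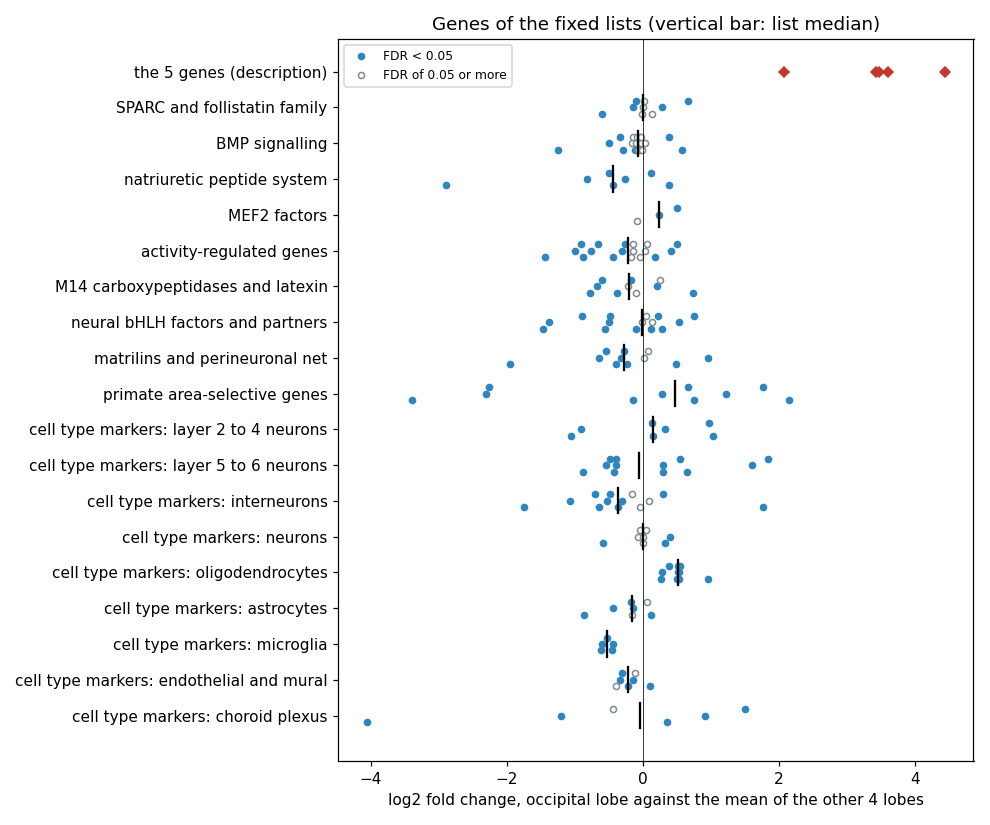
Log2 fold change between the occipital lobe and the mean of the other 4 lobes for the genes of the fixed lists. Filled points have an FDR under 0.05, open points do not, black bars are list medians, and red diamonds mark the 5 genes chosen on this contrast. The 5 genes lie between 2.07 and 4.43, and HTR1B, at 2.14, is the only listed gene above the lowest of them.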

How the data were processed

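Where read quality was poor, the authors trimmed the reads of the directional, ribosomal RNA-depleted libraries with Trim Galore (version 0.4.4). They aligned the reads with HISAT2 (version 2.0.5) to Mmul 8.0.1 and counted them per Ensembl gene with HTSeq (version 0.6.1). They deposited these as raw, unnormalized counts, and the strand setting of the counting is not given in the sources used here. The table holds 408 of the RNA libraries. The 8 midbrain libraries, 33 chromatin libraries and the assembled transcript models were not used here. Symbols came from a reference table, which named 17572 of 30807 identifiers, and for 12 further identifiers from the study's supplement. NHLH2 (ENSMMUG00000044679) is one of those 12. The other 4 are FSTL1 (ENSMMUG00000002925), OSTN (ENSMMUG00000020068), CPA6 (ENSMMUG00000023015) and MATN4 (ENSMMUG00000003402). Of the 208 other symbols in the fixed lists, 181 matched a single identifier. No gene lengths were available, so levels were not compared between genes.

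Counts were filtered with filterByExpr, scaled by TMM and tested with the edgeR (version 4.0.16) quasi-likelihood test in R (version 4.3.3), with Benjamini-Hochberg adjustment over all genes tested. Lobes and region groups were summed per animal, and the animal entered each regional fit as a block, because every animal was sampled in every sub-region. Age and sex entered 1 model together. Each standard error is the absolute log2 fold change divided by the square root of the test's F. Regional calls needed an FDR under 0.05, age and sex calls an FDR under 0.1 and an absolute log2 fold change above 1, and differences of effects an FDR under 0.1. The lobe contrast of the 5 genes has no test. A floor of 3 counts stood for groups without counts, and the log scale of profiles used a pseudocount of 1. Floors cover counting error only. The scripts were tested on simulated data. DESeq2 (version 1.42.0), its size factors, no filter, no block and leaving out animals were the alternatives.

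The 5 genes and all lists were chosen with earlier results of these data known, and the 5 belong to a co-expression module the authors built on these cortical samples. Named besides them were the 3 genes most like each, with a unique symbol and a mean of at least 1 CPM, and at most 4 called genes per list by absolute log2 fold change. One of the genes so chosen is not reported here. UTS2B's levels across the brain were looked at after its likeness to OSTN was seen.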

Additional observations from a re-analysis of the deposited data

Results flagged for a closer look

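Of 140 groups of 4 or 8 samples with a reported level, 15 held a sample far from the others (a gap above Dixon's critical value), where chance alone flags about 1 in 20 groups. OSTN was far higher in Rhesus 6 than in the other animals in the superior precentral gyrus (7.28 CPM), the intraparietal sulcus (10.0 CPM), the occipito-temporal gyrus (19.03 CPM) and the hypothalamus (8.99 CPM), and in Rhesus 7 in the IOG (85.0 CPM). MATN4 was far higher in Rhesus 2 in the inferior precentral gyrus (3.71 CPM), the superior postcentral gyrus (4.78 CPM), the annectant gyri (6.44 CPM) and, among the mid-aged animals, the occipital lobe (16.2 CPM). NHLH2 stood out in the pSOG of Rhesus 4 (5.90 CPM), the cerebellar samples CBC of Rhesus 6 (24.8 CPM) and CBV of Rhesus 4 (30.7 CPM). FSTL1 stood out as high in the posterior superior parietal gyrus of Rhesus 6 (119 CPM) and the CA1 sample of Rhesus 10 (61.2 CPM), and as low in the putamen sample of Rhesus 2 (40.5 CPM).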

How the results depend on the processing

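The calls within the occipital lobe were the least stable. For pSOG against aSOG, where 3 of the 5 genes were called, all 5 were called by DESeq2 and without the filter, none without the replicate block, and 0 to 5 when animals were left out. Calls over all genes moved too, from 162 to 375 by DESeq2, 234 without the filter, 4 without the replicate block, and 14 to 267 when animals were left out. For IOG against aSOG, 1 of the 5 (MATN4) was called by DESeq2 and without the filter, and 0 to 1 when animals were left out. The animals pair the samples, since each gave every sub-region. Over all genes, the fit without the replicate block called 6292 for the occipital lobe, against 9835 with it.

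Of the 15 pairs of a gene and its closest 3 (12 distinct genes), 2 stayed among the closest 3 with Spearman's rho, both with UTS2B, and 6 (5 distinct genes) without the occipital gyri. On the log2(CPM + 1) scale of sub-region means the occipital difference was 1.59 for CPA6, 1.39 for NHLH2 and 2.54 for MATN4, which understates low genes. Outside the cortex, 60 (without the block) to 62 of 75 combinations of gene and region group were called; the hypothalamus of Rhesus 6 was the only sample left out there. The unfiltered fit turned NHLH2 in the amygdala to -0.077, and lost its call in the corpus callosum (0.89), where FSTL1 gained one (-0.28). Without the block MATN4 was no longer called in the medulla oblongata (-0.75) or the substantia nigra (-0.80).

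No age or sex contrast called any of the 5 genes under any alternative run, but uncalled values changed sign. The sex difference of MATN4 between the occipital lobe and the rest turned to -0.019 without the block, and to between -0.30 and 0.30 without single animals. By age in the occipital lobe, OSTN spanned -0.43 to 0.13, and by sex -0.50 to 0.062. In the rest of the cortex by age, OSTN spanned -0.069 to 0.27, CPA6 -0.65 to 0.058 and NHLH2 -0.71 to 0.035. By sex there, FSTL1 spanned -0.062 to 0.067, OSTN -0.047 to 0.29, CPA6 -0.27 to 0.46 and NHLH2 -0.30 to 0.43. The age difference between the occipital lobe and the rest spanned -0.44 to 0.23 for CPA6. The cause of these changes was not tested. Depth limits CPA6 and NHLH2 most, with a median of 1 count in the other cortical samples.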
